A study of Macaca mulatta with 12 samples.

Results

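SGCE, PPP1R9A, TFPI2 and DLX5 are 4 genes of 1 chromosomal neighbourhood that holds an imprinted cluster. Their members on the array were all probe sets whose annotation gave exactly 1 of these symbols: 1 for SGCE, 5 for TFPI2, 1 for PPP1R9A and 1 for DLX5, which makes 8 of 52766 probe sets. Levels were read on 12 rhesus macaque gene expression arrays (Affymetrix), with 3 replicates of each of 4 kinds of cell, in a series that set maternal-only stem cell lines against a biparental one to look for imprinted genes. Adult skin fibroblasts came from a male monkey aged 9 years. ORMES-9 is an embryonic stem (ES) cell line whose labels conflict: the sample descriptions have it as a homozygous parthenote, the source field as derived from an IVF blastocyst, and this was not resolved here. rPESC-2 is an ES line from a parthenogenetic blastocyst, described as heterozygous, and ORMES-22 is an ES line from an IVF blastocyst with a maternal and a paternal genome. All 3 ES lines are labelled female, so sex, cell type and culture cannot be told apart between fibroblasts and ES cells. ES cells grew on mouse embryonic fibroblast feeders, and RNA came from colonies picked as undifferentiated. Replicates A, B and C of ORMES-9 were at passages 13, 14 and 16, those of rPESC-2 at 16, 10 and 16, and those of ORMES-22 at 18, 21 and 19. Each ES group is 1 line, so a difference between groups is a difference between these lines. Replicates are labelled biological, but nothing says whether they came from separate cultures, so p-values measure the spread between these arrays.

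An imprinted gene is expressed mainly from the chromosome of 1 parent, following DNA methylation marks laid down in the egg or the sperm. In humans and mice SGCE is expressed from the paternal chromosome, together with its neighbour PEG10, from a promoter region that is methylated on the maternal chromosome, whereas PPP1R9A and TFPI2 are expressed mainly from the maternal chromosome in some tissues, placenta above all. Imprinting of DLX5 has been reported in some human cells and disputed elsewhere. Cells of a parthenote carry no paternal chromosome.

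Levels are the authors' log2 values, on which 1 unit is a 2-fold difference. Array medians lay between 5.01 and 5.10, and arrays of the same group correlated at 0.984 to 0.997 across all probe sets. ORMES-22 replicate A correlated less with replicates B and C of its own line (0.9855 and 0.9844) than with the rPESC-2 arrays (0.9882 to 0.9896). Dim probe sets were read against 42 bacterial control probe sets, whose 90th percentile was 4.26 and whose highest value was 5.80. A probe set is called higher or lower where limma's adjusted p was under 0.05 and the difference at least 2-fold. The pluripotency markers set the ES lines apart from fibroblasts, in which 8 of 10 were called lower than in ORMES-22 and 1, NANOG on its brightest probe set, was called higher. Over all probe sets 8.04% were called lower and 10.8% higher. ZFP42, the marker not called, averaged 4.38 in fibroblasts and 4.43 to 4.53 in the ES lines, near the controls' 90th percentile. NANOG was called higher in fibroblasts than in ORMES-9 and rPESC-2 too, and leaving out ORMES-22 replicate A ended its call against ORMES-22 alone. The mean level over the 10 measured pluripotency markers was 4.94 to 5.06 in fibroblasts, against 9.99 to 10.24 in ORMES-9, 9.97 to 10.06 in rPESC-2 and 9.65 to 9.96 in ORMES-22. The mean level over 20 fibroblast and matrix genes was 10.75 to 10.85 in fibroblasts and at most 8.89 in any ES array. Of these 20, 14 were called higher in fibroblasts than in ORMES-22 and 2 lower (COL5A2 and FBLN1). Without ORMES-22 replicate A, 11 were called higher and the same 2 lower. With bulk RNA, fewer cells of a type and less RNA per cell cannot be told apart.

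SGCE encodes epsilon-sarcoglycan, a membrane glycoprotein related to the sarcoglycans of the muscle dystrophin complex, and mutations in it cause myoclonus-dystonia in humans. It was bright in fibroblasts, dim in ORMES-22 and at the level of the control probe sets in ORMES-9 and rPESC-2. Its probe set is MmugDNA.18241.1.S1_at. The fibroblast arrays read 9.68, 9.58 and 9.69. ORMES-9 read 4.09, 4.14 and 4.14 and rPESC-2 read 3.75, 3.82 and 3.87. ORMES-22 read 5.98, 4.87 and 5.09 in replicates A, B and C. The 4 groups did not overlap, all 6 arrays of ORMES-9 and rPESC-2 lay under the controls' 90th percentile, and all 3 arrays of ORMES-22 lay above it, although replicates B and C stayed under the brightest control.

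**Figure D1:**
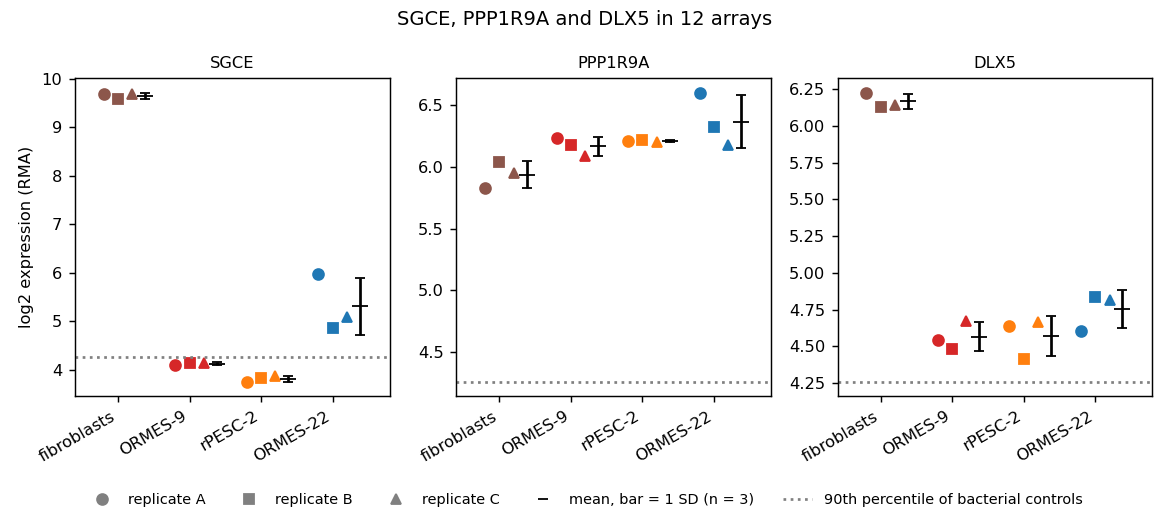
Log2 level (vertical axis, a separate scale in each panel) of SGCE, PPP1R9A and DLX5 on each of the 12 arrays, by group. Points are arrays, with the symbol giving the replicate letter, bars are the group mean and 1 SD (n = 3), and the dotted line is the 90th percentile of the bacterial controls (4.26). SGCE lies under this line on all 6 arrays of ORMES-9 and rPESC-2 and between 4.87 and 5.98 in ORMES-22.

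Against ORMES-22, SGCE was called lower in both of these lines. In ORMES-9 it averaged 4.13 ± 0.03 against 5.31 ± 0.59 in ORMES-22 (SD, n = 3 each), a log2 difference of −1.185 (SE 0.21, 95% confidence interval −1.64 to −0.73, limma adjusted p = 0.00503). In rPESC-2 it averaged 3.82 ± 0.06, a log2 difference of −1.495 from ORMES-22 (SE 0.21, interval −1.95 to −1.04, limma adjusted p = 0.00168). Since the signal in both lines did not exceed background, the sizes are given as bounds on the group means. By these, SGCE was at least 2.07-fold lower in ORMES-9 and in rPESC-2 than in ORMES-22, counting every dim array at 4.26. The bound allows for background but not for the spread between arrays, with which the interval for ORMES-9 reaches −0.73.

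The size of the SGCE difference rests in part on 1 array. ORMES-22 replicate A read 1.00 above the mean of replicates B and C. Without it the difference was −0.85 for ORMES-9, with a limma adjusted p of 7.56e-05 but under 2-fold, and −1.16 for rPESC-2, still called. The bound without it was 1.64-fold for both lines. When only the 6 arrays compared were fitted, the limma adjusted p was 0.101 for ORMES-9 and 0.0668 for rPESC-2, so neither was called.

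Between ORMES-9 and rPESC-2, SGCE was not called. The log2 difference was 0.31 (SE 0.21, interval −0.15 to 0.77, limma adjusted p = 0.56), and both lines were at background, so no fold is given. The order of the levels was fibroblasts, ORMES-22, ORMES-9 and rPESC-2, with the last pair not separated by the test.

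Fibroblasts exceeded every ES line. The log2 difference from ORMES-22 was 4.34 (SE 0.21, 20.3-fold, limma adjusted p = 4.24e-09). From ORMES-9 and from rPESC-2 it was at least 42-fold, with limma adjusted p-values of 4.23e-10 and 2.62e-10.

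Some marker lists differed between ES lines along with SGCE, and others did not. Among the pluripotency markers, GDF3 was called higher in both ORMES-9 and rPESC-2 than in ORMES-22, and PRDM14 in ORMES-9. These were 2 of 10 measured markers in ORMES-9 and 1 in rPESC-2, beside 0.946% and 0.769% of all probe sets called higher. None of these calls held with only the 6 arrays compared. The mean level over 20 measured fibroblast and matrix genes was 8.07 to 8.30 in ORMES-9 and 7.87 to 8.23 in rPESC-2, against 8.52 to 8.89 in ORMES-22, so the ORMES-22 arrays were above those of the other lines. Of these 20 genes, 2 were called lower in ORMES-9 than in ORMES-22 (TWIST1 and LGALS1) with a median difference of −0.26, and 3 were called lower in rPESC-2 (COL6A3, TWIST1 and LOX) with a median of −0.47. Over all probe sets 0.629% were called lower in ORMES-9 and 0.474% in rPESC-2, with medians over all genes of −0.01 and −0.03. Without ORMES-22 replicate A the counts among the 20 genes were 4 for ORMES-9 (VIM, TWIST1, LOX and LGALS1, median −0.485) and 5 for rPESC-2 (COL6A3, FN1, THY1, TWIST1 and LOX, median −0.499). The share of all probe sets called in that fit was not counted. The rise in these counts is therefore not set against a rise over all probe sets. The LGALS1 call in ORMES-9 ended without ORMES-22 replicate B and without ORMES-9 replicate A or B, the LOX call in rPESC-2 ended without replicate B of either line, and with only the 6 arrays compared neither was called, nor was COL6A3. LUM, FAP, TWIST2 and PRRX1 had group means under 4.26 in every ES line. Within ORMES-22 the matrix mean did not follow SGCE: replicate A, the highest for SGCE, had the lowest matrix mean of the 3 (8.52, against 8.89 in B and 8.67 in C).

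The endoderm markers ran the other way, with a mean level over 8 measured genes of 7.04 to 7.50 in ORMES-9 and 7.42 to 7.64 in rPESC-2, against 5.97 to 6.48 in ORMES-22. Of these, 3 were called higher in ORMES-9 than in ORMES-22 (SOX17, FOXA2 and GATA6), beside 0.946% of all probe sets. In rPESC-2 the same genes and CER1 were called higher, 4 in all, beside 0.769% of all probe sets. With only the 6 arrays compared, SOX17 and GATA6 were not called in ORMES-9 (limma adjusted p = 0.0541 and 0.0572). FOXA1 had a mean under 4.26 in ORMES-22. Limma called 0 of 11 trophoblast and 0 of 5 neural genes in either line against ORMES-22. Of all probe sets, 1.57% were called in ORMES-9 and 1.24% in rPESC-2. Trophoblast means overlapped: 6.265 to 6.94 in ORMES-22, 6.33 to 6.89 in ORMES-9 and 6.30 to 6.40 in rPESC-2. Neural means were 6.89 to 7.46, 7.04 to 7.11 and 6.75 to 6.87 in the same order. Without ORMES-22 replicate A, PAX6 was called lower in both lines and TFAP2C in rPESC-2. The part of the matrix, endoderm and other markers, and of RNA from the mouse feeders, in the SGCE difference was not tested.

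PPP1R9A encodes neurabin-1, an actin-binding protein that brings protein phosphatase 1 to the cytoskeleton, best known from neurons. Its probe set was called in none of the 6 comparisons. The values were 5.83, 6.04 and 5.95 in fibroblasts, 6.24, 6.18 and 6.09 in ORMES-9, 6.21, 6.22 and 6.20 in rPESC-2, and 6.60, 6.32 and 6.18 in ORMES-22. The ES groups overlapped, the fibroblast arrays lay under all ES arrays, and the whole span of the 12 arrays was under 1 log2 unit.

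The order of the PPP1R9A levels was ORMES-22, rPESC-2, ORMES-9 and fibroblasts, and the test separated no neighbours among the ES lines. The difference from ORMES-22 was −0.20 in ORMES-9 (interval −0.42 to 0.02, limma adjusted p = 0.332) and −0.16 in rPESC-2 (interval −0.38 to 0.07, limma adjusted p = 0.415). These intervals hold neither a 2-fold drop nor a 2-fold gain. ORMES-9 differed from rPESC-2 by −0.04 (interval −0.27 to 0.18). Fibroblasts were lower than ORMES-22 by a log2 difference of −0.43 (SE 0.10, limma adjusted p = 0.00365), which is under 2-fold, and differed by −0.23 from ORMES-9 and −0.27 from rPESC-2 (limma adjusted p = 0.0799 and 0.0418). As 1 probe set stands for the gene and all its values lie above the controls' 90th percentile but within 1 unit of the brightest control, a difference at low signal may be understated.

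TFPI2, or tissue factor pathway inhibitor 2, is a secreted Kunitz-type inhibitor of plasmin and other serine proteases that is held in the extracellular matrix. It has 5 probe sets, and they did not move in 1 direction. On 3 of them fibroblasts were far higher than every ES line, and on the other 2 fibroblasts were lower. MmugDNA.38053.1.S1_at, the brightest of the 5 by its mean on all arrays, stands for the gene.

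**Figure D2:**
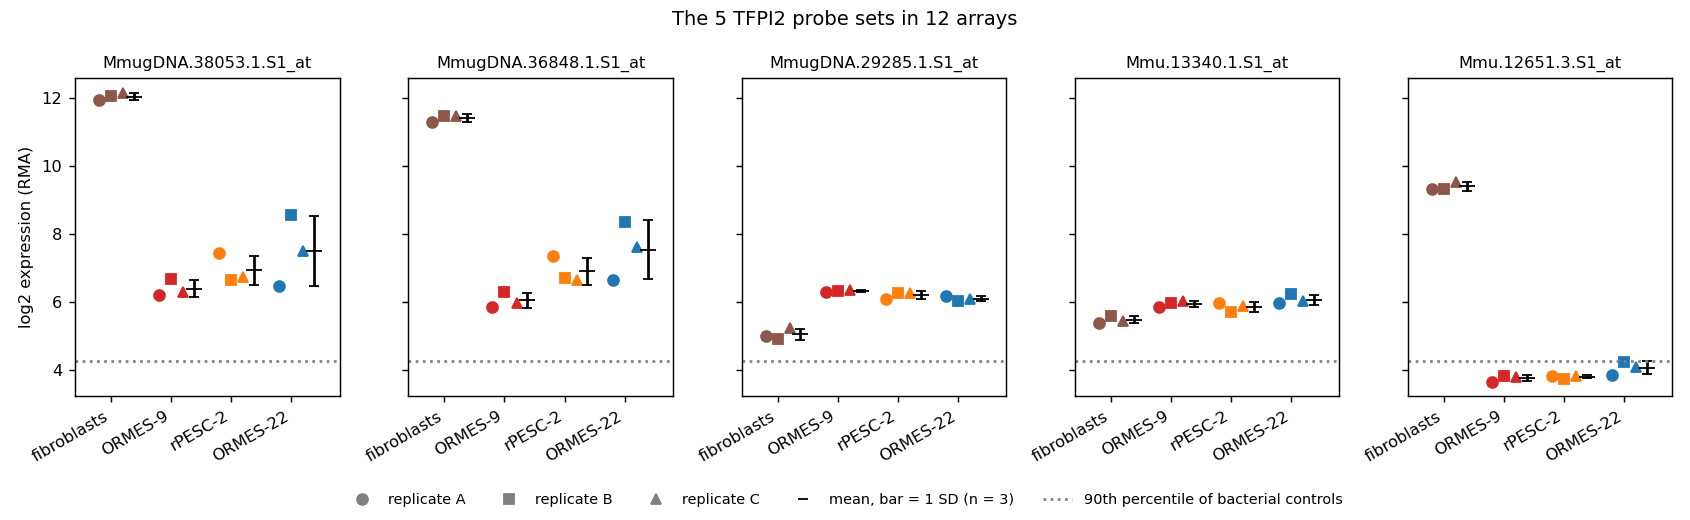
Log2 level (vertical axis, 1 scale for all panels) of the 5 TFPI2 probe sets on each of the 12 arrays, by group; points are arrays, bars the group mean and 1 SD (n = 3), and the dotted line the controls' 90th percentile (4.26). Fibroblasts are highest on 3 probe sets and lowest on MmugDNA.29285.1.S1_at and 1 other.

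MmugDNA.38053.1.S1_at read 11.93, 12.05 and 12.14 in fibroblasts. It read 6.20, 6.67 and 6.31 in ORMES-9 and 7.43, 6.63 and 6.75 in rPESC-2. ORMES-22 read 6.47, 8.55 and 7.50 in replicates A, B and C. Fibroblasts stood apart from all ES arrays, whereas the 3 ES groups overlapped, and ORMES-22 replicate A sat 1.55 below the mean of replicates B and C.

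Fibroblasts exceeded ORMES-22 on this TFPI2 probe set by a log2 difference of 4.54 (SE 0.39, 23.2-fold, limma adjusted p = 9.86e-07), ORMES-9 by 5.65 and rPESC-2 by 5.10. Between ES lines it was not called: the difference from ORMES-22 was −1.11 in ORMES-9 (interval −1.97 to −0.25, limma adjusted p = 0.144) and −0.57 in rPESC-2 (interval −1.43 to 0.30, limma adjusted p = 0.446), and ORMES-9 differed from rPESC-2 by −0.54 (interval −1.40 to 0.32, limma adjusted p = 0.6). These intervals include differences of 2-fold and more. The order of levels was fibroblasts, ORMES-22, rPESC-2 and ORMES-9, and no neighbours among the ES lines were separated.

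The call between ES lines turned on ORMES-22 replicate A. Without that array TFPI2 was called lower in both lines, by −1.63 in ORMES-9 (limma adjusted p = 0.00295) and −1.08 in rPESC-2 (limma adjusted p = 0.0247).

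The probe set MmugDNA.36848.1.S1_at was also far higher in fibroblasts, and it set ORMES-9 further apart from the other ES lines. It read 11.28, 11.47 and 11.46 in fibroblasts, 5.86, 6.30 and 5.98 in ORMES-9, 7.34, 6.71 and 6.64 in rPESC-2, and 6.64, 8.36 and 7.62 in ORMES-22. ORMES-9 did not overlap with either other ES line. TFPI2 was called lower on this probe set in ORMES-9 than in ORMES-22 (log2 difference −1.49, SE 0.34, 2.81-fold, limma adjusted p = 0.0214). Leaving out ORMES-22 replicate B (−1.08, limma adjusted p = 0.0502) or C ended that call, as did leaving out replicate A or C of ORMES-9 and a fit with only the 6 arrays compared (limma adjusted p = 0.155). rPESC-2 was not called against ORMES-22 on it (−0.64, limma adjusted p = 0.303), but was called lower without ORMES-22 replicate A (−1.09, limma adjusted p = 0.00899).

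On the remaining probe set that was higher in fibroblasts, they read 9.33, 9.32 and 9.54, and all 9 ES arrays lay between 3.66 and 4.25, under the controls' 90th percentile. Fibroblasts were at least 35.2-fold higher there than each ES line. The same gene thus read above the controls in ES cells on some of its probe sets and at their level on another.

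The other probe sets of TFPI2 went against these. On MmugDNA.29285.1.S1_at fibroblasts read 5.01, 4.92 and 5.23, against 6.03 to 6.35 over the 9 ES arrays, and were called lower than ORMES-22 by −1.05 (limma adjusted p = 9.94e-07), than ORMES-9 by −1.27 and than rPESC-2 by −1.15. The difference from ORMES-22 was under 2-fold without fibroblast replicate B (−0.98). On the last of the 5 fibroblasts averaged 5.48 ± 0.10, against 5.95 ± 0.10 in ORMES-9, 5.85 ± 0.14 in rPESC-2 and 6.07 ± 0.14 in ORMES-22 (SD, n = 3 each), under 2-fold in each comparison. Over the 9 ES arrays, MmugDNA.38053.1.S1_at correlated with MmugDNA.36848.1.S1_at at r = 0.968 and with MmugDNA.29285.1.S1_at at r = −0.87, as a description of arrays that share lines. The orientation and position of the probes are not given in the sources used here, and why the probe sets disagree was not tested.

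DLX5 encodes a distal-less homeobox transcription factor that acts in bone formation and in the developing forebrain. Fibroblasts read 6.23, 6.13 and 6.14. ORMES-9 read 4.54, 4.48 and 4.67, rPESC-2 read 4.64, 4.42 and 4.66, and ORMES-22 read 4.60, 4.83 and 4.82. Fibroblasts stood apart, the 3 ES lines overlapped, and every ES array was above the controls' 90th percentile and under their brightest value.

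Fibroblasts were called higher for DLX5 than ORMES-22 (log2 difference 1.42, SE 0.09, 2.67-fold, limma adjusted p = 7.43e-08), ORMES-9 (1.60, 3.03-fold) and rPESC-2 (1.59, 3.02-fold). The difference from ORMES-22 was −0.19 in ORMES-9 (interval −0.39 to 0.02, limma adjusted p = 0.318) and −0.18 in rPESC-2 (interval −0.38 to 0.02, limma adjusted p = 0.299). The order of the DLX5 levels was fibroblasts, ORMES-22, rPESC-2 and ORMES-9, with no neighbours among the ES lines separated. ORMES-9 and rPESC-2 differed by −0.01 (interval −0.21 to 0.20, limma adjusted p = 0.986). Near background RMA values understate differences, so these narrow intervals bound the measured signal more than the transcript.

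Over the 8 probe sets of the 4 genes, 5 were called higher and 1 lower in fibroblasts than in ORMES-22, with a median difference of 2.64. Over all probe sets 10.8% were called higher and 8.04% lower (18.8% in either direction), with a median of −0.13. Against ORMES-9 and against rPESC-2 the counts were also 5 higher and 1 lower, where 10.5% of all probe sets were called higher against each line, and 9.41% lower against ORMES-9 and 9.45% against rPESC-2 (19.9% in either direction for both). The 3 comparisons share the fibroblast arrays, and 5 of the 8 probe sets report 1 gene.

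In ORMES-9 against ORMES-22, 2 of the 8 were called lower (SGCE and 1 TFPI2 probe set) and 0 higher, with a median of −0.25, where 0.629% of all probe sets were called lower and 0.946% higher (1.57% in either direction), with a median of −0.01. In rPESC-2 against ORMES-22, 1 of the 8 was called lower (SGCE) and 0 higher, with a median of −0.24, where 0.474% were called lower and 0.769% higher (1.24% in either direction), with a median of −0.02. These 2 comparisons share the ORMES-22 arrays. In ORMES-9 against rPESC-2, limma called 0 of the 8, with 1 at an unadjusted p under 0.05, where 1.23% of all probe sets were called, 0.544% higher and 0.688% lower.

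The neighbourhood was followed through 25 listed genes on chromosome 3, in the order of the RefSeq annotation of the assembly T2T-MMU8v2.0, from HEPACAM2 to ASNS. The 4 genes are spread along it: TFPI2 lies near the start, SGCE and PPP1R9A flank PEG10 in the middle, and DLX5 lies towards the end. Of the 25 genes, 20 were measured by 34 probe sets. PEG10, the paternally expressed neighbour of SGCE, and VPS50, DYNC1I1, DLX6 and TAC1 were not analysed here. The platform annotation gave no probe set any of these symbols alone. The annotated spans of SGCE and CASD1 overlap.

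**Figure D3:**
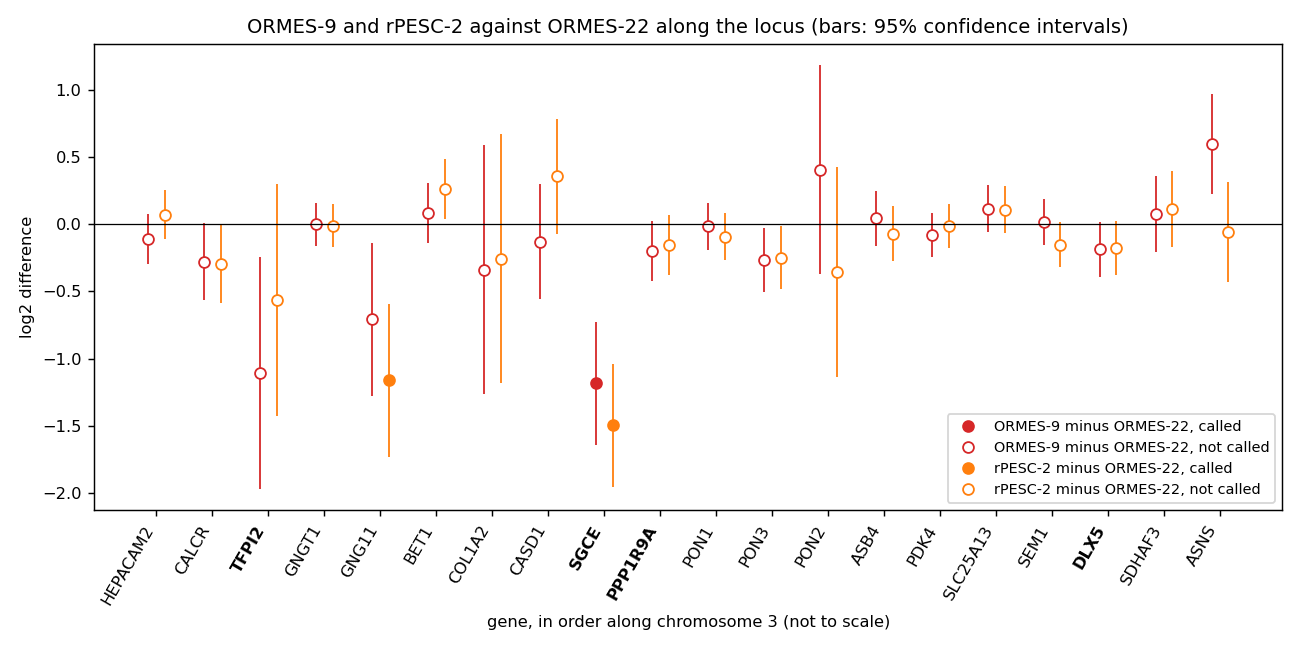
Log2 difference (vertical axis) of ORMES-9 (red) and rPESC-2 (orange) from ORMES-22 for the 20 measured genes of the neighbourhood, in their order along the chromosome, not to scale. Points are limma estimates for the brightest probe set of each gene, bars 95% confidence intervals, filled points called; SGCE is filled for both lines and GNG11 for rPESC-2.

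In ORMES-9 against ORMES-22, 1 of the 20 genes was called lower, SGCE, with a median of −0.10 over the 20, beside 0.629% of all probe sets called lower and a median over all genes of −0.01. In rPESC-2 against ORMES-22, 2 were called lower, GNG11 and SGCE, with a median of −0.12, beside 0.474% of all probe sets called lower and a median over all genes of −0.03. In ORMES-9 against rPESC-2, limma called 0 of the 20, with 2 at an unadjusted p under 0.05, beside 1.23% of all probe sets called. CASD1, which encodes a sialic acid O-acetyltransferase and overlaps SGCE, differed from ORMES-22 by −0.13 in ORMES-9 (interval −0.56 to 0.30) and 0.36 in rPESC-2 (interval −0.07 to 0.78). On the other side of PEG10, PPP1R9A was not called, as given above.

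GNG11 encodes a gamma subunit of heterotrimeric G proteins and is a close neighbour of TFPI2. On its brightest probe set it read 12.02, 12.02 and 12.06 in fibroblasts, 9.397, 9.499 and 9.05 in ORMES-9, 8.97, 8.85 and 8.77 in rPESC-2, and 9.25, 10.63 and 10.19 in ORMES-22. As with TFPI2, replicate A was the lowest array of ORMES-22. The difference of rPESC-2 from ORMES-22 was −1.16 (SE 0.26, limma adjusted p = 0.0262), and it passed the test neither without ORMES-22 replicate B or C, nor without any 1 of the rPESC-2 arrays, nor with only the 6 arrays compared. For ORMES-9 it was −0.71 (limma adjusted p = 0.159). Without ORMES-22 replicate A, the genes called lower were TFPI2 and GNG11 in ORMES-9, and TFPI2, GNG11 and SGCE in rPESC-2.

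**Figure D4:**
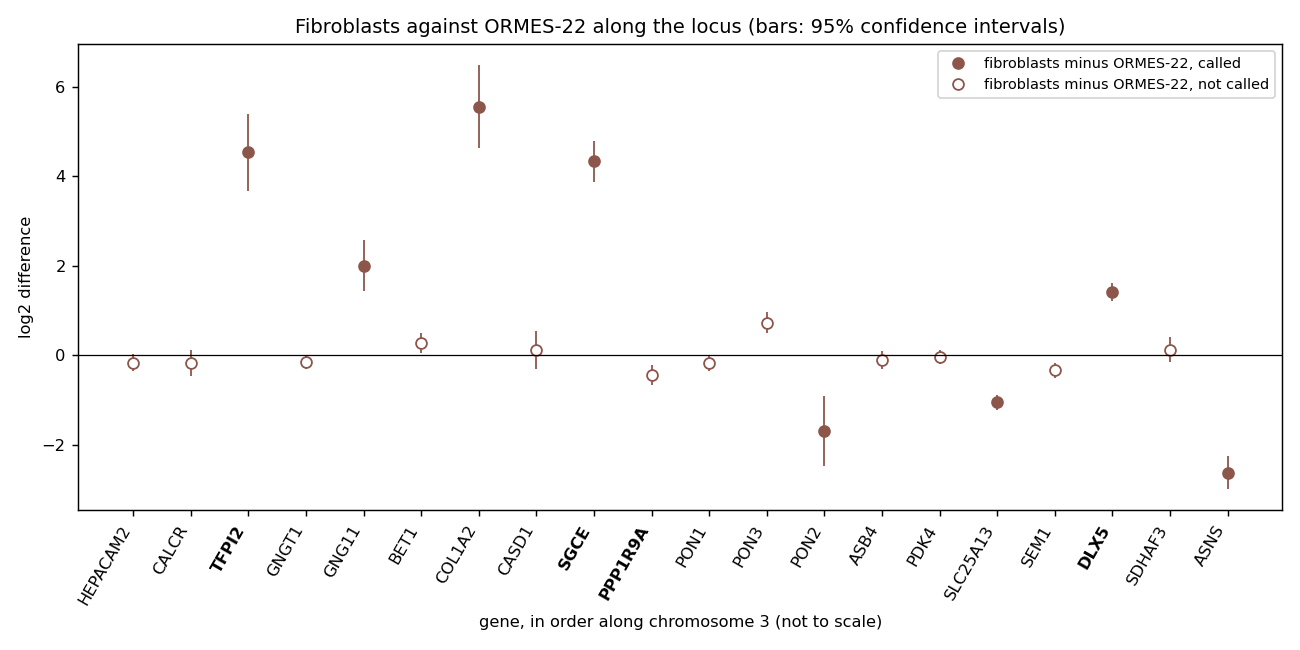
Log2 difference (vertical axis) of fibroblasts from ORMES-22 for the 20 measured genes of the neighbourhood, in their order along the chromosome, not to scale. Points are limma estimates for the brightest probe set of each gene, bars 95% confidence intervals, filled points called; TFPI2, GNG11, COL1A2, SGCE and DLX5 are higher, and PON2, SLC25A13 and ASNS lower.

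In fibroblasts against ORMES-22, 5 of the 20 genes were called higher and 3 lower, with a median difference of −0.07, beside 10.8% of all probe sets called higher, 8.04% called lower and a median over all genes of −0.18. The higher genes were TFPI2, GNG11, COL1A2, SGCE and DLX5, and the lower ones PON2, SLC25A13 and ASNS. COL1A2, which encodes a chain of type I collagen, had a log2 difference of 5.55 (SE 0.42, 47-fold, limma adjusted p = 2.93e-07). ASNS, asparagine synthetase, differed by −2.61 (SE 0.17, limma adjusted p = 6.82e-08). PON2, an intracellular paraoxonase, differed by −1.69 (SE 0.36, limma adjusted p = 0.0016) and SLC25A13, a mitochondrial aspartate and glutamate carrier, by −1.05 on its brightest probe set, a difference that was under 2-fold without fibroblast replicate C (−0.998). The counts were the same 5 and 3, of the same genes, against ORMES-9 and against rPESC-2. HEPACAM2, GNGT1, PON1 and PDK4 had means under 4.26 in all 4 groups, so nothing is said of their change.

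The sarcoglycans other than SGCE and their dystrophin-complex partners were given as a list of 14 genes, of which 7 were measured. In fibroblasts against ORMES-22, 2 were called higher (SGCB and SNTB1) and 1 lower (DTNA), with a median of 0.37. For this list and those that follow, the comparison called 10.8% of all probe sets higher and 8.04% lower, and its median over all genes was −0.18. SGCB, beta-sarcoglycan, read 8.97, 8.85 and 8.59 in fibroblasts, against 6.34, 6.56 and 6.88 in ORMES-22, a log2 difference of 2.21 (SE 0.16, limma adjusted p = 1.67e-07). DTNA, alpha-dystrobrevin, differed by −3.04 (limma adjusted p = 1.03e-06). Where SGCE differed between ES lines, these partners mostly did not pass the test. SNTB1, a syntrophin, was called higher in ORMES-9 than in ORMES-22 (1.05, limma adjusted p = 0.0176), beside 0.946% of all probe sets. That call ended without replicate B of either line and with only the 6 arrays compared. The median of the 7 was −0.24 for ORMES-9 and −0.17 for rPESC-2. In rPESC-2 limma called 0 of them, with 3 at an unadjusted p under 0.05, beside 1.24% of all probe sets called. For this list and those that follow, the share of all probe sets at that unadjusted threshold was not counted. The unadjusted counts are therefore not read as a trend of a list.

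Of 8 protein phosphatase 1 genes and regulators listed as partners of PPP1R9A, 6 were measured. PPP1R2, inhibitor-2 of the phosphatase, was the gene called higher in fibroblasts than in ORMES-22. It read 7.33, 7.30 and 6.92 in fibroblasts, against 4.01, 4.42 and 4.32 in ORMES-22 (log2 difference 2.93, SE 0.14, limma adjusted p = 4.36e-09), and the median of the 6 was 0.24. The ORMES-22 mean of PPP1R2, 4.25, was at the controls' 90th percentile, with 1 array under it, so the size of this difference depends on background signal. Limma called 0 of the 6 in ORMES-9 against ORMES-22 and 0 in rPESC-2 against ORMES-22, beside 1.57% and 1.24% of all probe sets. In each, 4 were at an unadjusted p under 0.05, a threshold at which all probe sets were not counted.

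Of 15 listed genes of the tissue factor and plasmin pathway in which TFPI2 acts, 13 were measured. In fibroblasts against ORMES-22, 7 were called higher and 0 lower: TFPI, F3, PLAUR, SERPINE2, SERPINB2, PROCR and ANXA2, with a median over the 13 of 1.05, beside 10.8% and 8.04% of all probe sets. SERPINB2, an inhibitor of plasminogen activators, read 11.69, 11.97 and 11.82 in fibroblasts and was under 4.26 on all ES arrays, at least 190-fold higher (limma adjusted p = 8.26e-15 against ORMES-22). TFPI, the inhibitor after which TFPI2 is named, was at least 31.5-fold higher in fibroblasts than in ORMES-22 (limma adjusted p = 8.75e-11). F3, tissue factor itself, averaged 9.66 ± 0.08 in fibroblasts and 7.48 ± 1.01 in ORMES-22 (SD, n = 3 each), a log2 difference of 2.18. The same 7 genes were called higher against ORMES-9 and against rPESC-2.

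Between ES lines, PLAU, the urokinase-type plasminogen activator, was called lower in rPESC-2 than in ORMES-22. It was the 1 gene of the 13 so called, beside 0.474% of all probe sets. It read 9.36, 9.02 and 8.67 in rPESC-2, against 9.56, 10.35 and 10.74 in ORMES-22 (log2 difference −1.20, SE 0.25, limma adjusted p = 0.0203). It was not called when replicate B or C of either line was left out, or with only the 6 arrays compared. In ORMES-9 against ORMES-22 limma called 0 of the 13, with 4 at an unadjusted p under 0.05, beside 1.57% of all probe sets called. Without ORMES-22 replicate A, PLAU was called lower in ORMES-9 too, and in rPESC-2 SERPINE2 was called higher and PLAU and S100A10 lower.

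Of 11 listed DLX relatives and partners of DLX5, 9 were measured. In fibroblasts against ORMES-22, 2 were called higher (DLX1 and MSX1) and 1 lower (MSX2), with a median of −0.26. DLX1, another distal-less gene, read 8.17, 8.07 and 7.91 in fibroblasts, against 4.54, 4.51 and 4.76 in ORMES-22 (log2 difference 3.45, SE 0.10, limma adjusted p = 4.09e-11). MSX1, a homeobox gene of limb and craniofacial development, had a log2 difference of 4.00 (limma adjusted p = 3.51e-07). MSX2 differed by −1.42 (limma adjusted p = 0.0199), which fibroblast replicate A and ORMES-22 replicate C were each needed to call. Limma called 0 of the 9 between any pair of ES lines. Of all probe sets, 1.57% were called in ORMES-9 and 1.24% in rPESC-2 against ORMES-22, and 1.23% between ORMES-9 and rPESC-2. At an unadjusted p under 0.05 were 2 and 4 where ORMES-9 and rPESC-2 were each set against ORMES-22, and 0 between ORMES-9 and rPESC-2. Without ORMES-22 replicate A, MSX2 was called lower in both ORMES-9 and rPESC-2 than in ORMES-22.

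Genes with the pattern most like that of each gene were ranked by Pearson's r among named genes with an SD of at least 0.3. Over the 9 ES arrays, the 5 nearest to SGCE of 2557 genes were MAGEL2 (r = 0.983), MAMU-E (0.936), UBD (0.925), BAIAP2L2 (0.913) and SNRPN (0.907). These arrays fall into 3 lines and share them, so the values describe which genes were high in ORMES-22. MAGEL2 and SNRPN are expressed from the paternal chromosome of the Prader-Willi region in humans and mice.

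MAGEL2 read 4.22, 4.33 and 4.02 in ORMES-9 and 4.04, 4.16 and 4.11 in rPESC-2, against 6.87, 5.56 and 5.54 in ORMES-22. Its replicate A was the highest of ORMES-22, as for SGCE. In fibroblasts it read 3.97, 4.29 and 4.03, so there it did not go with SGCE. SNRPN was at 5.66 to 5.93 on the 6 arrays of ORMES-9 and rPESC-2, against 12.98, 12.85 and 12.55 in ORMES-22. MAMU-E read 7.255, 6.93 and 6.78 in ORMES-22, 5.69 to 6.21 in the other ES lines and 7.88 to 8.04 in fibroblasts. UBD read 5.505, 5.26 and 4.82 in ORMES-22, 3.82 to 4.07 in the other ES lines and 6.04 to 6.265 in fibroblasts. BAIAP2L2 read 7.85, 7.035 and 6.97 in ORMES-22, 6.32 to 6.63 in the other ES lines and 5.225 to 5.33 in fibroblasts. MAMU-E and UBD, like SGCE, were thus highest in fibroblasts.

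**Figure D5:**
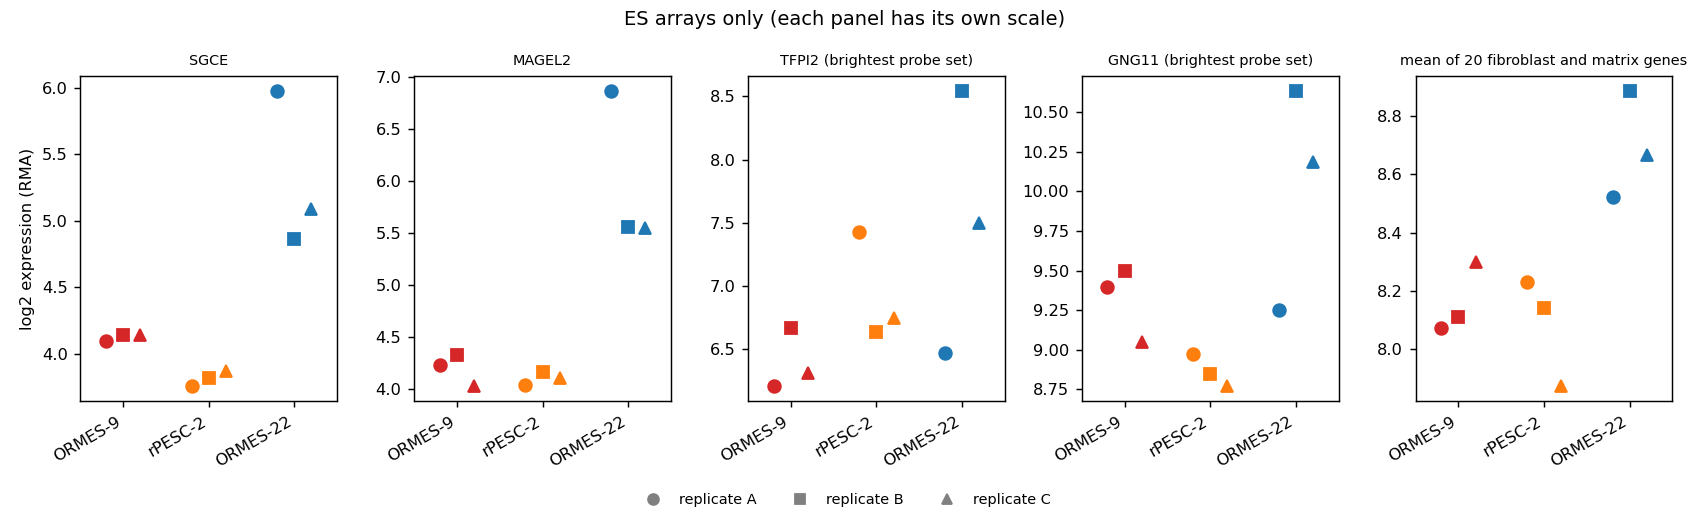
Log2 level (vertical axis, a separate scale in each panel) of SGCE, MAGEL2, TFPI2 and GNG11 and the mean of 20 fibroblast and matrix genes on the 9 ES arrays, by line, with the symbol giving the replicate letter. In ORMES-22, replicate A is highest for SGCE (5.98) and MAGEL2 (6.87) and lowest for TFPI2 (6.47), GNG11 (9.25) and the matrix mean (8.52).

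Over the same 9 arrays, the 5 nearest to TFPI2 were CRABP1 (r = 0.935), IDS (0.932), CRISPLD2 (0.932), LMO2 (0.917) and DUSP5 (0.914), none of them among the 5 nearest to SGCE. SGCE and TFPI2 correlated at r = 0.18 over these arrays. PPP1R9A and DLX5 were not ranked there, with SDs of 0.145 and 0.14. CRABP1, a cytoplasmic retinoic acid binding protein, read 9.57, 9.78 and 9.39 in ORMES-9, 10.55, 9.97 and 10.21 in rPESC-2, and 10.57, 12.50 and 11.21 in ORMES-22, where replicate A was again the lowest.

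Over all 12 arrays the ranking rests on the gap between fibroblasts and ES cells. The 5 nearest of 6455 genes were SUCLG1 (r = 0.995), MXRA5, DAAM2, PID1 and HOXA11 for SGCE, TMSB4X (0.992), SFT2D1, HOXC10, COL3A1 and HOXA5 for TFPI2, and ATOH8 (0.998), SIRPA, HTATIP2, CBR3 and HOXB6 for DLX5. PPP1R9A, with an SD of 0.193 over the 12 arrays, was not ranked.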

How the data were processed

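Total RNA of 12 samples was biotin-labelled and hybridised to 1 array each, per the labels' protocols. The authors deposited log2 expression values per probe set, summarised with RMA per the submitters' processing notes; software and version are not given in the sources used here. The values themselves show the log2 scale. RMA equalises array distributions and compresses differences near background. Of 52865 features, 99 control features were left out. The platform annotation gave 24956 probe sets 1 symbol, 361 several and 27449 none, and only those with 1 symbol were named. Of the named probe sets, 24934 had a symbol in the RefSeq table of T2T-MMU8v2.0, used for names and gene order only. The brightest probe set over the 12 arrays stood for each of 14132 genes.

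Group means were fitted to the 12 arrays together by limma (version 3.58.1, under R 4.3.3; lmFit, then eBayes), with 8 degrees of freedom from the residuals and 3.69 from the prior. Tests are two-sided, and Benjamini-Hochberg adjustment ran across 52766 probe sets. The fit was tested on simulated data in which a probe set had the same spread in every group. That test does not cover unequal spreads, such as those of SGCE (SD 0.59 in ORMES-22 and 0.03 in ORMES-9). No batch is labelled. A probe set under 4.26 on all arrays of a group got a bound, with each such array at 4.26. Bounds were taken from group means and do not allow for the spread between arrays. Same-lettered replicates deviated from their group means with correlations of −0.31 to 0.265 over 18 pairs, 6 of them over 0.1, so the letters were not taken to pair samples. No pair of arrays was identical.

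The members, lists, comparisons and naming rule were chosen with earlier results of these data known. Named were all probe sets of the 4 genes, any measured neighbour, up to 4 called genes of each partner list by size, and the 5 genes most correlated with each of the 4. ANXA2, PLAUR and S100A10, named only in counts, the values of F3, and NANOG were added after their values were seen. Alternatives were other array sets, normalisations, priors, weights, fold minimums, 1 probe set per gene, the replicate letter as a block, and each array left out in turn. Sequences of the genes were not used here.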

Additional observations from a re-analysis of the deposited data

How the results depend on the processing

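Over the alternatives run, SGCE kept its direction in every comparison, but its calls against ORMES-22 did not always hold. The count of the 8 probe sets called in ORMES-9 against ORMES-22 was 2. It was 0 with only the 6 arrays compared, 1 with only the 9 ES arrays, 0 with a 3-fold minimum and 1 with 1 probe set per gene, and 1 to 2 with each array left out. In rPESC-2 against ORMES-22 the count was 1, against 0 with only the 6 arrays compared, 0 with a 3-fold minimum, and 1 to 3 with each array left out, the 3 being without ORMES-22 replicate A. With 1 probe set per gene, 3 instead of 6 were called in fibroblasts against ORMES-22, 3 against ORMES-9 and 3 against rPESC-2, since 4 probe sets fewer were tested for TFPI2. The SGCE difference ranged from −1.41 to −0.85 in ORMES-9 and from −1.72 to −1.16 in rPESC-2 with each array left out. The brightest TFPI2 probe set was called lower in ORMES-9 with array weights (−1.33, limma adjusted p = 0.0307). The DLX5 difference between ORMES-9 and rPESC-2, −0.01, turned positive on leaving out replicate A (0.005) or B (0.034) of ORMES-9 and replicate A (0.025) or C (0.037) of rPESC-2, and ranged from −0.086 to 0.037 with each array left out, within its error each time. With the replicate block, the counts in the 6 comparisons stayed at 6, 2, 1, 0, 6 and 6. The limits are 3 arrays per group, 1 line per genotype, 1 probe set for all but TFPI2, and SGCE signal at background in ORMES-9 and rPESC-2, so its loss there has no measured upper size. The causes of the changes with the arrays fitted were not tested.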

Other observations

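The passages of the ES arrays are given beside the values that varied most within a line. ORMES-22 was sampled at passages 18, 21 and 19 in replicates A, B and C, where the brightest TFPI2 probe set read 6.47, 8.55 and 7.50 and SGCE read 5.98, 4.87 and 5.09. rPESC-2 was sampled at passages 16, 10 and 16, where TFPI2 read 7.43, 6.63 and 6.75. With 3 arrays per line no relation with passage was tested.

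PON2, like TFPI2 and unlike SGCE, was lowest in replicate A of ORMES-22, with 10.16 in replicate A, 11.98 in B and 11.49 in C on its brightest probe set, against 11.71, 11.52 and 11.61 in ORMES-9. ASNS was higher in ORMES-9 than in rPESC-2 by a log2 difference of 0.65 (SE 0.17, limma adjusted p = 0.0478), under 2-fold, with values of 11.77, 12.13 and 11.44 in ORMES-9 and 11.27, 11.27 and 10.83 in rPESC-2.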
